A study of Mus musculus with 6 samples.

Results

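The 10 genes described here are ligands, antagonists, inhibitory SMADs and target genes of bone morphogenetic protein (BMP) signalling, read in mouse presomitic mesoderm, the caudal tissue of the embryo that has not yet segmented into somites. They are Bmp4, Bmp7, Nog, Fst, Smad6, Smad7, Id1, Id2, Id3 and Msx2, chosen by name as probe sets whose sole gene symbol is one of these. All 10 were measured, each by 1 probe set, among 18064 probe sets and 15153 genes with a symbol of their own. The tissue was dissected at embryonic day 9.5 from embryos of 17 to 19 somites, and each array read a pool of 3 presomitic mesoderms. The 3 control pools came from embryos of genotype Taf10Flox/+ or Taf10flox/flox, labelled wild type, so a floxed allele was present in every group. The 3 mutant pools came from TCre/+;Taf10flox/flox embryos. In these, a Cre recombinase under the control of the T (Brachyury) gene, which is active in the primitive streak and the mesoderm formed from it, deletes Taf10. TAF10 is a subunit of TFIID, which brings RNA polymerase II to promoters, and of the coactivator SAGA. The comparison asks how the BMP genes differ in this tissue when Taf10 is deleted. The control genotypes list no Cre, so the presence of Cre and the deletion of Taf10 cannot be told apart. As each value is a pool, the spread between single embryos was not measured.

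BMPs are secreted ligands that bind paired type I and type II receptor kinases, which phosphorylate SMAD1, SMAD5 and SMAD9. With SMAD4 these enter the nucleus and switch on direct targets such as the Id genes, whose products bind E proteins and keep them from activating differentiation genes. In the trunk of the embryo BMP4 from lateral mesoderm and ectoderm favours lateral fates, and antagonists such as Noggin protect the paraxial mesoderm, which forms the somites, from it.

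None of the 10 genes passed an adjusted p under 0.05 in limma, while 5.92% of all genes did, 2.96% higher and 2.96% lower. At an unadjusted p under 0.05 there were 3 of 10, Bmp4 lower and Id3 and Smad6 higher, against 22.7% of all genes. The values of the mutant pools lay wholly above those of the control pools for Id3 and Smad6, 2 of 10, against 32.3% of all genes whose groups did not overlap (17.2% higher and 15.1% lower). The first of these counts is a little above the share of all genes and the second is below it, so neither sets the 10 genes apart. The log2 change, mutant minus control, was above 0 in 8 of 10 members with a median of 0.15, while 59.3% of all genes were above 0 with a median of 0.03. The 10 changes ran from -0.43 for Bmp4 to 0.31 for Id3. In bulk tissue a lower reading from fewer cells of one type and one from less RNA per cell cannot be told apart.

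**Figure D1:**
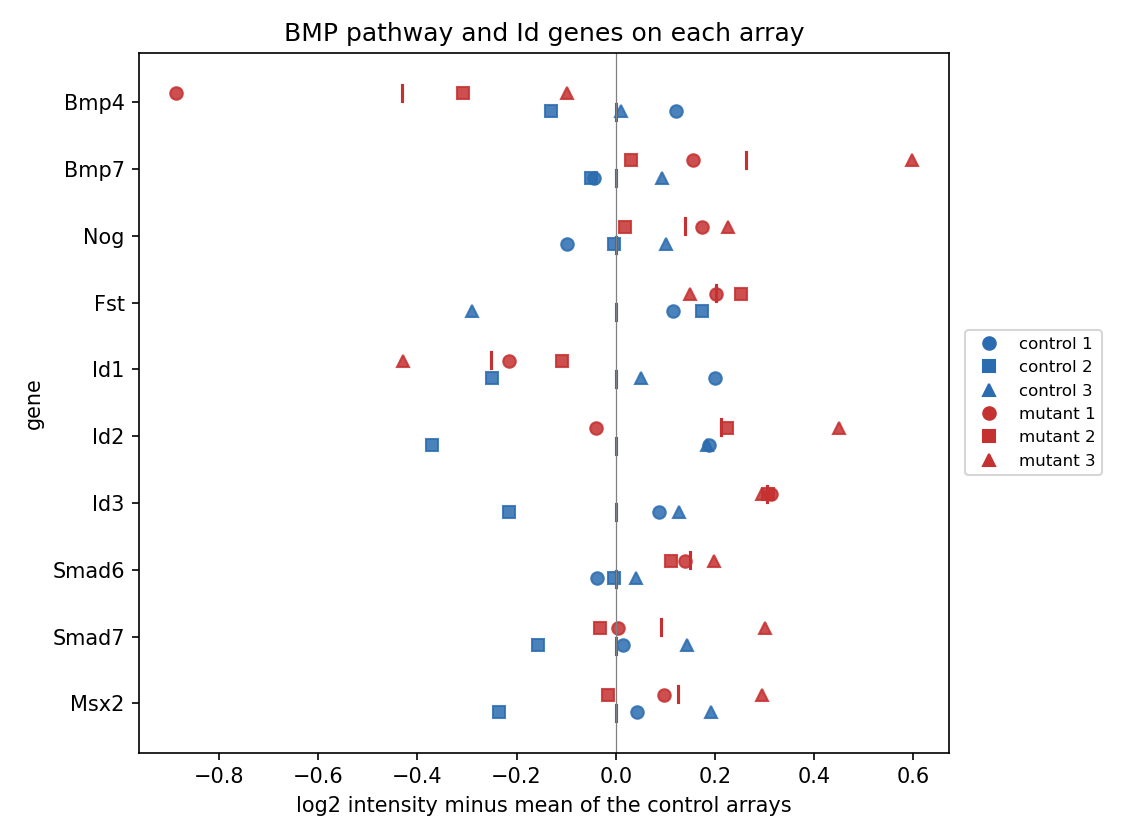
Distance of each array from the control mean in log2 intensity (x axis) for the 10 genes (rows), with the 3 control arrays in blue and the 3 mutant arrays in red; marker shape gives the replicate number and vertical bars the group means. Red and blue points are apart for Id3 and Smad6, and mutant 1 lies far below the other arrays for Bmp4.

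The arrays were alike in overall brightness, with median intensities of 307.9 to 317.5. Mutant 3 stood apart, at 31.1 on the first principal component against -16.3 to 3.79 for the other arrays. It read genes of low level higher, with a median of 0.14 above the control mean in the 3788 genes of lowest level and of -0.08 in the 3789 of highest level. Control 3 had an Xist level of 6.32 on the log2 scale against 11.3 to 12.6 elsewhere, so the pools differed in their make-up by sex. A Taf10 probe set, which was called, fell to 77.1% of control (log2 -0.37, limma adjusted p = 0.0400), the other gave a log2 change of 0.11 (limma adjusted p = 0.530), and which part of the transcript each reads is not known here. Markers of the labelled tissue were present, with log2 levels in the control pools of 11.9 to 12.1 for Tbx6, 12.0 to 12.3 for Msgn1 and 11.8 to 11.9 for Dll1. The summed intensity of 9 presomitic markers was 14.5 to 14.6 on the log2 scale in control pools and 14.7 to 14.8 in mutant pools. Single markers went both ways: Tbx6 (log2 0.63, limma adjusted p = 0.0129) and the clock gene Hes7 (log2 0.52, limma adjusted p = 0.00758) rose, Rspo3, a secreted enhancer of Wnt signals, fell (log2 -0.74, limma adjusted p = 0.0127), and the other 6 did not pass. Mutant 3 also had the lowest summed intensity of 7 erythroid markers, at 12.1 on the log2 scale against 13.2 to 14.5 on the other arrays. It held the lowest readings of Klf1 and of the globin genes Hbb-y, Hbb-bh1 and Hba-x. Control 2 held those of Gata1, Alas2 and Epor. Of the 7 markers 0 passed in limma, with 0 at an unadjusted p under 0.05. The part of blood cells in the values of mutant 3 was not tested.

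Of the ligands, Bmp4 was read lower and Bmp7 higher in the mutant pools, and neither passed. Bmp4, made in the trunk mainly by lateral mesoderm and ectoderm, had log2 intensities of 10.39, 10.13 and 10.28 in control pools 1 to 3 and of 9.38, 9.96 and 10.17 in mutant pools 1 to 3. Mutant 1 was the lowest of the 6 by a wide margin, and mutant 3 overlapped the controls. The group means were 10.27 ± 0.13 and 9.83 ± 0.41 (SD, n = 3 each), a log2 change of -0.43 (SE 0.18, 95% interval -0.86 to -0.0049, limma adjusted p = 0.214), or 74.2% of control. Permuting the 6 values exactly gave a two-sided p = 0.2, and 0.1 is the smallest p that 3 against 3 allows. The size rested on single pools: the log2 change was -0.20 without mutant 1 (limma adjusted p = 0.298) and -0.60 without mutant 3, where it passed (limma adjusted p = 0.0433).

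Bmp7, a ligand that can pair with BMP4, had log2 intensities of 7.75, 7.75 and 7.89 in the control pools and 7.95, 7.83 and 8.39 in the mutant pools. Mutant 3 was the highest of all, and mutant 2 lay within the controls. The log2 change was 0.26 (SE 0.14, 95% interval -0.06 to 0.58, limma adjusted p = 0.308; exact two-sided permutation p = 0.2), and it was 0.09 without mutant 3. Among all 12 BMP and GDF ligand genes measured, 0 passed the adjusted threshold in limma. At an unadjusted p under 0.05 there was 1 (Bmp4). The log2 change was above 0 in 11 of the 12 (median 0.10), against 59.3% of all genes (median 0.03). Each of these 11 had a mean level under 8.21 on the log2 scale. Genes under that level had median changes of 0.06 (the 3788 of lowest level) and 0.07 (the next 3788). The part of this general shift in the count of 11 was not tested. After Bmp4 and Bmp7 the smallest p-values belonged to Gdf6 (log2 0.15, limma adjusted p = 0.419) and Gdf5 (log2 0.10, limma adjusted p = 0.445), growth and differentiation factors of the same family. Bmp2, the ligand closest to BMP4 in sequence, had a log2 change of 0.02 with a 95% interval of -0.34 to 0.38.

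The antagonists among the 10 did not pass. Noggin, the product of Nog, binds BMPs outside the cell and keeps them from their receptors. Its log2 intensities were 6.96, 7.06 and 7.16 in control pools and 7.24, 7.08 and 7.29 in mutant pools, with mutant 2 inside the control range. The log2 change was 0.14 (SE 0.08, 95% interval -0.05 to 0.33, limma adjusted p = 0.358; exact two-sided permutation p = 0.2), and with 1 array left out it ran from 0.09 without control 1 to 0.20 without mutant 2. Follistatin, the product of Fst, binds activins most tightly and some BMPs. Fst read 10.20, 10.26 and 9.80 in control pools and 10.29, 10.34 and 10.24 in mutant pools, so control 3 was far below the other 5 arrays, which lay within a narrow range. The log2 change of 0.20 (SE 0.12, 95% interval -0.08 to 0.48, limma adjusted p = 0.363; exact two-sided permutation p = 0.2) went to 0.06 without control 3, the pool with the low Xist level.

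Another secreted antagonist, outside the 10, gave the largest change of the pathway. Grem1, which encodes Gremlin 1, a protein that binds BMP2, BMP4 and BMP7, had log2 intensities of 9.58, 9.65 and 9.64 in control pools and 8.44, 8.85 and 8.61 in mutant pools. Every mutant pool lay below every control pool, and the control pools were nearly equal. Grem1 fell to 50.4% of control (log2 -0.99, SE 0.10, 95% interval -1.23 to -0.75, limma adjusted p = 0.00529; exact two-sided permutation p = 0.1). It passed with each array left out in turn, at limma adjusted p-values from 0.00240 to 0.0475. Of 19 antagonists and extracellular modulators measured, Grem1 was the 1 that passed (5.26%, against 5.92% of all genes). The median change of the 19 was 0.07. The next smallest p-values were those of Fstl3, a follistatin-like activin binder (log2 0.24, limma adjusted p = 0.0655), Tll1, a protease of the family that cleaves the antagonist chordin (log2 -0.25, limma adjusted p = 0.0682), and Dand5, a secreted antagonist of Nodal and BMPs (log2 0.29, limma adjusted p = 0.0926). Chrd, which encodes chordin itself, had a log2 change of 0.12 with a 95% interval of -0.08 to 0.32.

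**Figure D2:**
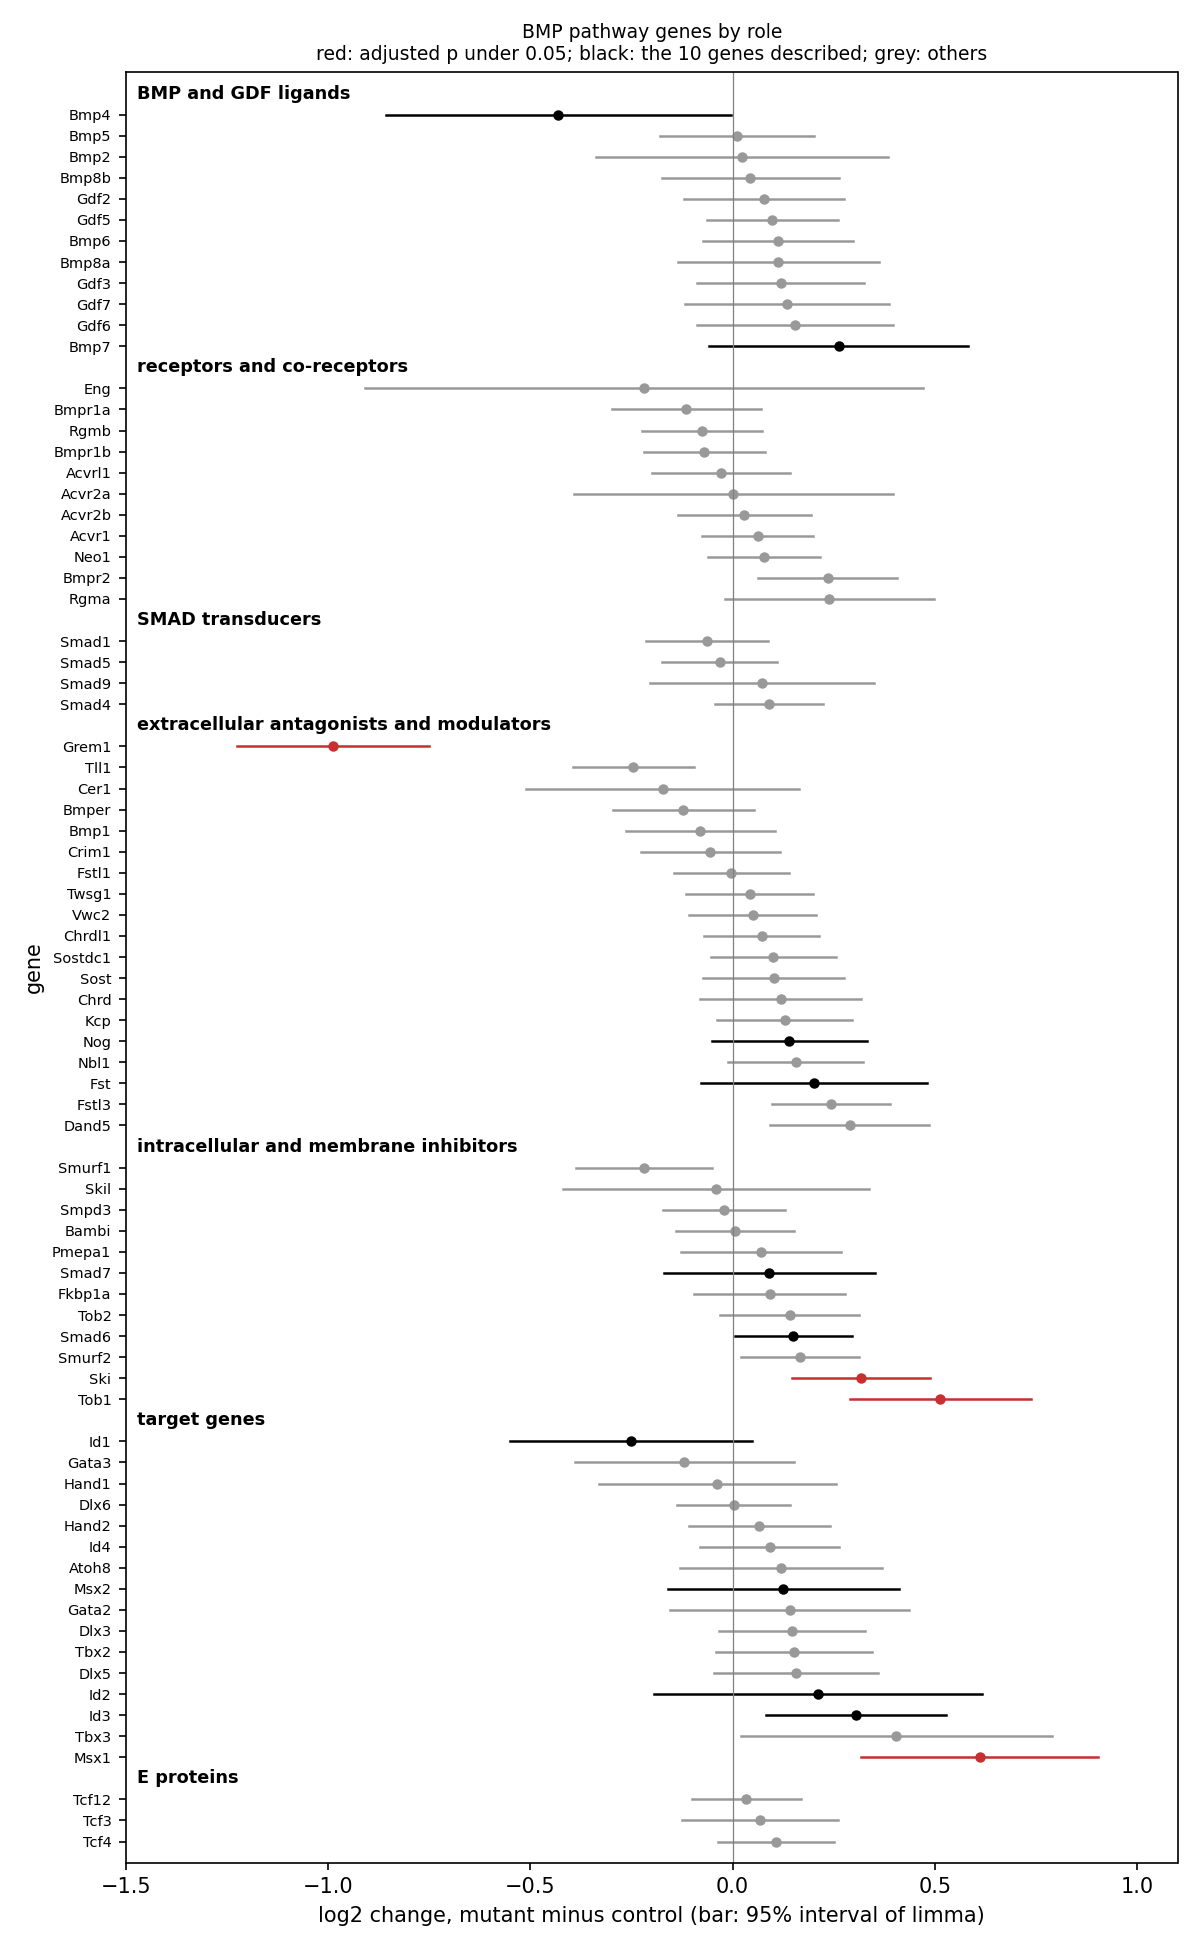
Log2 change, mutant minus control, with the 95% interval of limma (x axis), for the 77 measured BMP pathway genes grouped by role; red marks an adjusted p under 0.05, black the 10 genes described and grey the others. Grem1 at -0.99 and Tob1, Ski and Msx1 at 0.51, 0.32 and 0.61 are the red points.

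Receptors and SMAD transducers gave 0 calls in limma. Of 11 receptor and co-receptor genes, 1 was at an unadjusted p under 0.05, Bmpr2, which encodes the type II BMP receptor (log2 0.24, limma adjusted p = 0.109). Its partner Bmpr1a, the main type I receptor of mesoderm, had a log2 change of -0.11 with a 95% interval of -0.30 to 0.07. The co-receptors Rgma (log2 0.24, limma adjusted p = 0.252) and Neo1 (log2 0.08, limma adjusted p = 0.472) completed the 4 smallest p-values. The 4 transducers Smad1, Smad5, Smad9 and Smad4 had changes of -0.06, -0.03, 0.07 and 0.09, with 0 at an unadjusted p under 0.05. For Smad1 the 95% interval ran from -0.21 to 0.09 and for Smad5 from -0.17 to 0.11.

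The inhibitory SMADs are induced by the pathway and feed back on it. SMAD6 acts mainly on BMP signals and SMAD7 on both BMP and TGF-beta signals. Smad6 had log2 intensities of 8.53, 8.57 and 8.61 in the control pools and 8.71, 8.68 and 8.77 in the mutant pools. The groups did not overlap, but the gap was narrow, with means of 8.57 ± 0.04 and 8.72 ± 0.04 (SD, n = 3 each). The log2 change was 0.15, or 1.11-fold (SE 0.06, 95% interval 0.0057 to 0.29, limma adjusted p = 0.203; exact two-sided permutation p = 0.1). It stayed between 0.13 and 0.17 under every alternative run and passed under none, at adjusted p-values from 0.138 to 0.475. Smad7 read 8.79, 8.61 and 8.92 in control pools and 8.78, 8.74 and 9.07 in mutant pools, so the groups were interleaved. The log2 change was 0.09 (SE 0.11, 95% interval -0.17 to 0.35, limma adjusted p = 0.657; exact two-sided permutation p = 0.7) and went to -0.01 without mutant 3.

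Among the 12 intracellular and membrane inhibitors, 2 others passed, both higher (16.7% called, against 5.92% of all genes). The log2 change was above 0 in 9 of the 12, against 59.3% of all genes. Tob1, a protein of the BTG family that restrains proliferation and binds SMADs, had log2 intensities of 9.24, 9.29 and 9.39 in control pools and 9.90, 9.95 and 9.62 in mutant pools, all above the controls. It rose 1.43-fold (log2 0.51, SE 0.10, limma adjusted p = 0.0256). Ski, a corepressor that binds SMAD4, read 10.72, 10.65 and 10.81 in control pools and 11.00, 11.01 and 11.13 in mutant pools, again without overlap. It rose 1.25-fold (log2 0.32, SE 0.07, limma adjusted p = 0.0463). Tob1 and Ski each lost the call without any 1 of control 1, control 2, control 3, mutant 1 or mutant 2, with limma adjusted p-values of 0.0634 to 0.128 for Tob1 and 0.0838 to 0.199 for Ski, and both kept it without mutant 3.

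The ubiquitin ligases Smurf1 (log2 -0.22, limma adjusted p = 0.122) and Smurf2 (log2 0.17, limma adjusted p = 0.165), which target SMADs and receptors for degradation, did not pass. A second probe set of Smurf2 gave a log2 change of -0.02 with a 95% interval of -0.40 to 0.35. On it mutant 1 (8.38) and mutant 2 (8.36) lay above the control pools (8.15 to 8.23), and mutant 3 (7.73) lay below them. Bambi, a decoy receptor that is itself a BMP target, had a log2 change of 0.01 with a 95% interval of -0.14 to 0.15.

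**Figure D3:**
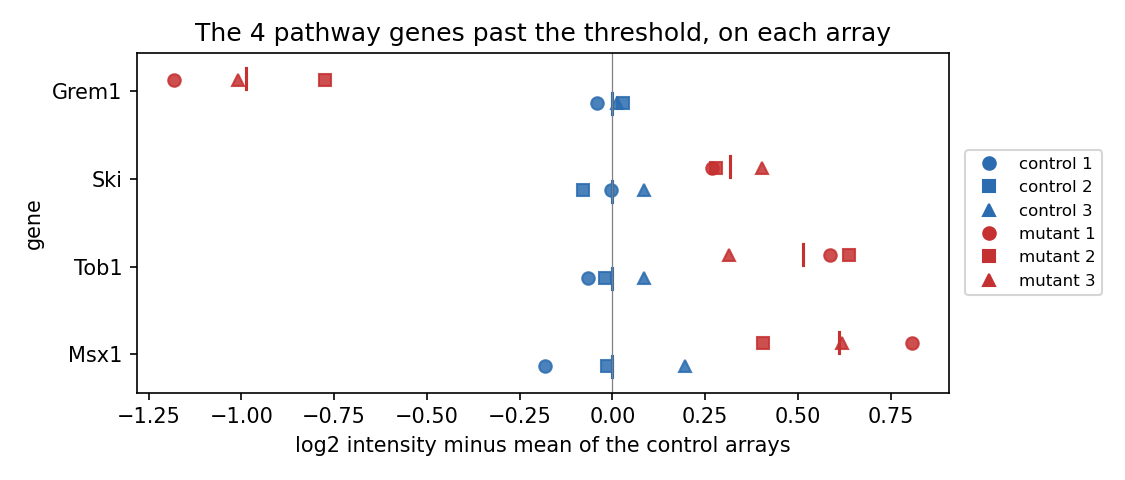
Distance of each array from the control mean in log2 intensity (x axis) for the 4 pathway genes past the adjusted threshold (rows), controls blue and mutants red, 3 arrays each; vertical bars are group means. All red points of Grem1 lie left of the blue ones, and those of Ski, Tob1 and Msx1 lie right of them.

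Id1, Id2 and Id3 are helix-loop-helix proteins without a DNA-binding region, and they are the classic immediate targets of BMP signals. Id3 was read higher, Id1 lower and Id2 higher, and none passed. Id3 had log2 intensities of 9.24, 8.94 and 9.28 in control pools and 9.47, 9.46 and 9.45 in mutant pools. The mutant pools were almost equal, and all lay above the controls, of which control 2 was the lowest. The means were 9.15 ± 0.19 and 9.46 ± 0.01 (SD, n = 3 each), a log2 change of 0.31 or 1.24-fold (SE 0.10, 95% interval 0.08 to 0.53, limma adjusted p = 0.109; exact two-sided permutation p = 0.1). The change was 0.20 without control 2 (limma adjusted p = 0.280). In an alternative chosen after seeing the data, with control 3 and mutant 3 both left out, it was 0.37 and passed (limma adjusted p = 0.0492).

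Id1 had log2 intensities of 10.31, 9.86 and 10.16 in control pools and 9.89, 10.001 and 9.68 in mutant pools, and control 2 fell within the mutant range. The log2 change was -0.25, or 84.0% of control (SE 0.13, 95% interval -0.55 to 0.05, limma adjusted p = 0.296; exact two-sided permutation p = 0.3). It ranged from -0.15 without control 1 to -0.38 without control 2 when single arrays were left out. Id2 read 10.89, 10.33 and 10.88 in control pools and 10.66, 10.92 and 11.15 in mutant pools, with control 2 the lowest and mutant 3 the highest. The log2 change was 0.21 (SE 0.18, 95% interval -0.19 to 0.62, limma adjusted p = 0.503; exact two-sided permutation p = 0.4), and it was 0.03 without control 2, 0.09 without mutant 3 and 0.34 without mutant 1. Id4, the other gene of the family, had a log2 change of 0.09 with a 95% interval of -0.08 to 0.26.

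Control 2 was the lowest of the 3 control pools in 7 of 10 members, and mutant 3 was the highest of the 3 mutant pools in 7 of 10. The shares of all genes were not counted, so neither count sets the 10 genes apart. Mutant 3 also read genes of low level higher in general. Of the 7 members highest in mutant 3, Bmp7, Nog and Msx2 had mean levels under 8.21. Smad6 and Smad7 were among the 3788 genes next above that level, where mutant 3 had a median of -0.02 against the control mean. Bmp4 and Id2 were among the 3789 of highest level, where this median was -0.08. The spread among the control pools was 0.56 on the log2 scale for Id2, 0.45 for Id1 and 0.34 for Id3, wider than the change between genotypes in each. It was also wider for Fst (0.47), Msx2 (0.43), Smad7 (0.30) and Nog (0.20), but not for Bmp4, Bmp7 or Smad6. Id genes are strongly expressed in blood vessels as well, and 10 endothelial markers varied unevenly between pools of the same genotype. The SD among control pools was 0.06 for Etv2 and Sox17, but 1.14 for Cdh5 and 1.23 for Emcn. The summed intensity of the 10 on the log2 scale was 11.4, 10.4 and 10.7 in control pools 1 to 3 and 10.3, 11.1 and 10.3 in mutant pools 1 to 3. Etv2 did not follow this order, as control 1 (6.95) was its lowest control and mutant 3 (7.31) its highest array. The 3 pools with the higher endothelial sums, control 1, control 3 and mutant 2, were also the 3 with the higher Id1 values. Cdh5, the vascular cadherin, ranged from 7.49 to 9.73 in control pools and from 6.85 to 9.13 in mutant pools, and 0 of 10 endothelial markers passed in limma, with 0 at an unadjusted p under 0.05. For Id3 the order differed, as the mutant pools lay between 9.45 and 9.47 while their endothelial sums ran from 10.3 to 11.1. The part of blood vessels in the Id1 values was not tested.

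**Figure D4:**
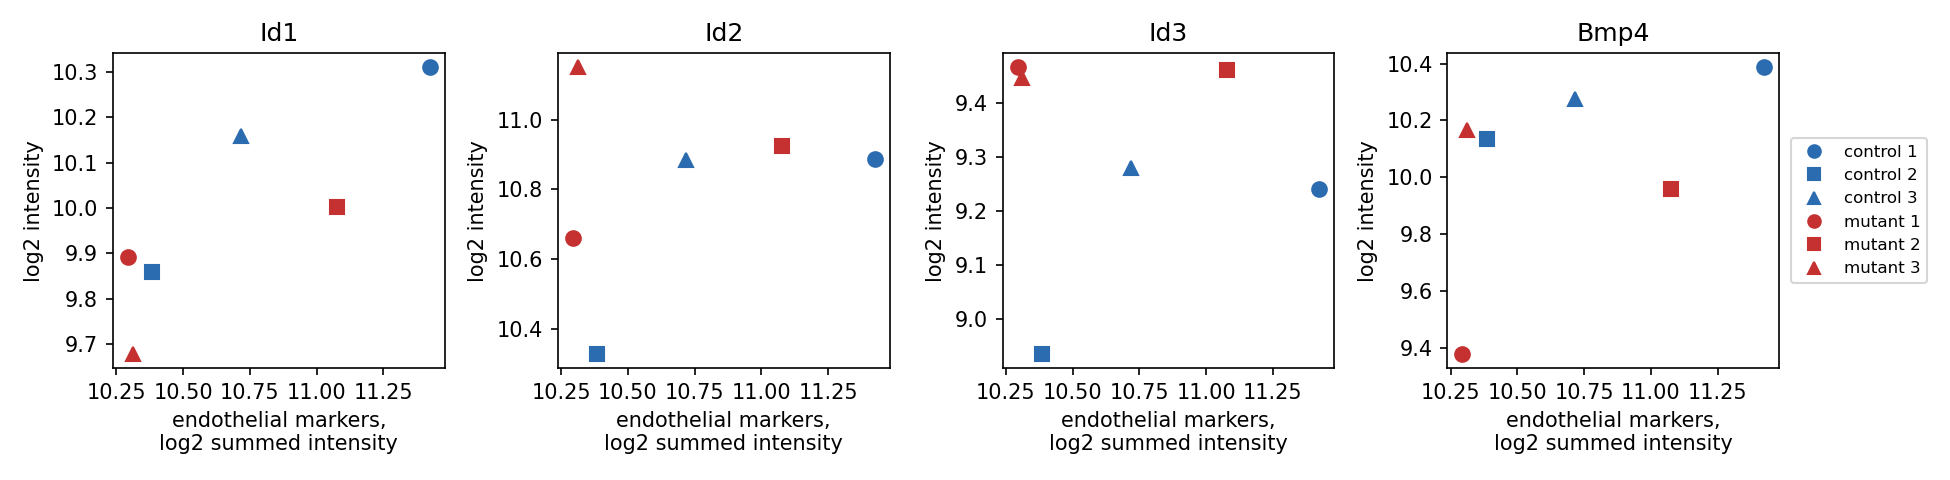
Log2 intensity of Id1, Id2, Id3 and Bmp4 (y axes) against the log2 of the summed intensity of 10 endothelial markers (x axes), with 1 point per array, blue for controls and red for mutants. Control 1 has the highest endothelial sum (11.4) and the highest Id1 value (10.31), and the 3 mutant points of Id3 share a level of about 9.46 across different sums.

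Msx2, a homeobox gene induced by BMPs in ectoderm, limb and dorsal neural tube, had log2 intensities of 8.10, 7.82 and 8.25 in control pools and 8.15, 8.04 and 8.35 in mutant pools. The groups were interleaved, and the log2 change was 0.13 (SE 0.12, 95% interval -0.16 to 0.41, limma adjusted p = 0.573; exact two-sided permutation p = 0.5). It was 0.0083 without control 2, 0.04 without mutant 3 and 0.22 without control 3. Its relative Msx1, a BMP target in many of the same tissues, read 7.84, 8.01 and 8.22 in control pools and 8.83, 8.43 and 8.64 in mutant pools, all above the controls. Msx1 rose 1.53-fold (log2 0.61, SE 0.13, 95% interval 0.32 to 0.90, limma adjusted p = 0.0347). The call was lost without control 1, control 2, control 3 or mutant 1 (limma adjusted p = 0.0501 to 0.150) and held without mutant 2 or mutant 3. Of 16 target genes Msx1 was the 1 that passed (6.25%, against 5.92% of all genes), and the median change was 0.13. At an unadjusted p under 0.05 there were also Id3 and Tbx3, a T-box gene of limb and flank (log2 0.40, limma adjusted p = 0.198), in which control 3 lay among the mutant pools. Msx1 is also a marker of the roof plate and dorsal neural tube. Of the 9 measured markers of roof plate and neural crest, Msx1 was the 1 called, and their summed intensity was 11.3 to 11.5 in control pools and 11.2 to 11.4 in mutant pools. Pax3, of the same list, had a log2 change of -0.73 that did not pass (limma adjusted p = 0.0681). The part of these cells in the Msx1 values was not tested.

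Promoter sequences were taken from a set of RefSeq promoters for Id2 and Id3, the Id genes among the members that the set held. Those of Msx2 beside its called relative Msx1, and of Grem1 as the largest change of the pathway, were also taken. The set used here (build GRCm38.p6) held a promoter for 5 of 10 members, Bmp4, Id2, Id3, Smad6 and Msx2, and for all 4 called pathway genes. The other members had no entry in this set. Each run below is the 250 bases before the annotated start, 5′ to 3′ on the gene's strand. Capitals mark matches on either strand to TATAA, the core of the TATA box bound by the TBP subunit of TFIID, to GGCGCC, a GC-rich element bound by BMP-activated SMADs, or to CCAAT, the site of the factor NF-Y. Id3 lies at chr4:136143572-136143821 (plus strand), Id2 at chr12:25096093-25096342 (minus strand), Msx2 at chr13:53472781-53473030 (minus strand), Msx1 at chr5:37824586-37824835 (minus strand) and Grem1 at chr2:113758649-113758898 (minus strand).
Id3: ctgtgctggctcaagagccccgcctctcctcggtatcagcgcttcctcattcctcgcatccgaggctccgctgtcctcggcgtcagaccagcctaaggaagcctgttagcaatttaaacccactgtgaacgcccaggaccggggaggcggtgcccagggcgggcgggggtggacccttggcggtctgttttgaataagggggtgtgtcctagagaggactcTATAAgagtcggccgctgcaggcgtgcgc
Id2: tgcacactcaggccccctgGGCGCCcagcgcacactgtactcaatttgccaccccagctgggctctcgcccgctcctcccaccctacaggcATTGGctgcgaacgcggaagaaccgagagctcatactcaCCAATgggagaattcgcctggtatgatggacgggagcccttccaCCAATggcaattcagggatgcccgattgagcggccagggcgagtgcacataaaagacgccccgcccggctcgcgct
Msx2: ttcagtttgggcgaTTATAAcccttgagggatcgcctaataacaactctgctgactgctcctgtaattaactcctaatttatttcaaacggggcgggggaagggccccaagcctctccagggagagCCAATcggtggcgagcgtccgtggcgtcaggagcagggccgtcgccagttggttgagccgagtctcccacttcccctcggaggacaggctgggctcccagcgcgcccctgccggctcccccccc
Msx1: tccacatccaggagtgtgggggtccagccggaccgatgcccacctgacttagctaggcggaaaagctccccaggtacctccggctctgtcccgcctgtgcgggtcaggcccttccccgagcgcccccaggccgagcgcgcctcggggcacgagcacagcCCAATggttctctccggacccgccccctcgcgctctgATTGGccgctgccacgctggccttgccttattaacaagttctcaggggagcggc
Grem1: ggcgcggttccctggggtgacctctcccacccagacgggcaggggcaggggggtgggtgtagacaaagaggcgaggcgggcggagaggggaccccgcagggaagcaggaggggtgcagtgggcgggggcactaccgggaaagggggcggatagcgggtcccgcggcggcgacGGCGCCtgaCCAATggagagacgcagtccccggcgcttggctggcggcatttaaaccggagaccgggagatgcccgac

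In Id3 a TATAA match began 29 bases before the start, where a TATA box usually lies. Id2 held 3 CCAAT matches and a GGCGCC match that began 231 bases before the start, and no TATAA. Msx2 held TATAA and its reverse complement as overlapping letters that began 236 bases before the start, far from the usual place, and 1 CCAAT match. Msx1 held 2 CCAAT matches and neither of the other motifs. Grem1 held GGCGCC, which began 78 bases before the start, and 1 CCAAT match. Of 32851 RefSeq promoters of the same length, 22.8% held TATAA, 9.59% GGCGCC and 33.8% CCAAT on either strand. Bmp4 and Smad6 held none of the 3 motifs in this window. Of the called genes not printed, Tob1 held TATAA, which began 47 bases before the start, and 2 CCAAT matches, and Ski held GGCGCC, which began 220 bases before the start. These matches describe the letters of the window, and no binding was measured.

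The E proteins, which Id proteins bind, did not pass: Tcf4, Tcf3 and Tcf12 had log2 changes of 0.11, 0.07 and 0.03, with 95% intervals within -0.12 and 0.26. Across the 77 BMP pathway genes measured, 3 were called higher and 1 lower, which is 5.19% called and close to the 5.92% of all genes. The pathway's median change was 0.08, against 0.03 for all genes.

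Bmp4 was also in the list of lateral plate mesoderm markers, of which 10 were measured. Prrx1, a homeobox gene of lateral and limb mesoderm, was the 1 of these that passed, at 67.4% of control (log2 -0.57, limma adjusted p = 0.0126). Foxf1 (log2 0.07), Hand1 (log2 -0.04), Hand2 (log2 0.07) and Isl1 (log2 -0.14) did not pass. Without Bmp4 itself, the summed intensity of the other 9 was 11.1 to 11.3 in control pools and 11.1 to 11.3 in mutant pools. Mutant 1, the pool with the lowest Bmp4 value, had the lowest sum (11.09). Nearly level was control 2 (11.11), which held the lowest Foxf1 reading (9.31). Mutant 1 held the lowest readings of all arrays for Prrx1 (6.38), Isl1 (8.39) and Hand1 (7.82). It did not for Foxf1, Hand2, Gata4, Tbx4, Tbx5 or Irx3. Of 11 surface ectoderm markers 0 passed in limma and 1 was at an unadjusted p under 0.05, the keratin gene Krt8 (log2 -0.28, limma adjusted p = 0.187), with sums of 10.6 to 10.8 in control pools and 10.5 to 10.8 in mutant pools. The part of lateral mesoderm or ectoderm in the Bmp4 and Grem1 values was not tested.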

How the data were processed

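RNA of 3 control and 3 mutant pools (150 ng of total RNA, whole-transcript labelling, per the labels' protocols) was read on 6 arrays. The deposited intensity values came from RMA, per the submitters' processing notes. The RMA version and whether probe sets were filtered: not given in the sources used here. Log2 of these values was used as it stood, and no 2 arrays were identical. Of 18064 probe sets, 16311 had 1 gene symbol, 734 several and 1019 none in the table used here. These 16311 were tested by genotype in limma 3.58.1 (R 4.3.3; lmFit, eBayes, no covariate), with Benjamini-Hochberg adjustment over all of them and a threshold of 0.05. The probe set with the highest mean stood for a gene. The fit was tested on simulated data. Levels of different genes were not ranked; differences between related genes on an array serve as shifts between genotypes. The limma p-values set each change against the spread between pools, moderated over all probe sets tested. The labels call these pools biological replicates, and the number of arrays limits the precision.

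The members and lists were chosen with earlier results of these data known. The rule named all 10 members, each called gene of the pathway lists, and up to 4 per list with the smallest p. Chrd, Bmp2, Id4, Bambi and the markers were named beside it. Alternatives were a replicate block, quantile normalization, median centring, a filter at the 40th percentile of level, all probe sets, eBayes with trend and robust settings together, means over probe sets, a threshold of 0.1 and each array left out. Added after seeing the data were cyclic loess and leaving out control 3 and mutant 3 together.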

Additional observations from a re-analysis of the deposited data

How the results depend on the processing

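Of the 10 members 0 passed in limma (3 at an unadjusted p under 0.05), and the count was also 0 under the replicate block, quantile normalization, median centring, the filter on level (which dropped Nog), all probe sets, eBayes with trend and robust settings together, means over probe sets, cyclic loess and a threshold of 0.1. With 1 array left out it was 0 to 1 (Bmp4, without mutant 3). With control 3 and mutant 3 both left out, a choice made after seeing the data, it was 1 (Id3), with 8 pathway and 2125 genes in all. The 4 pathway calls became 7 at a threshold of 0.1 and 1 to 9 with 1 array left out. The 897 genes became 1711 (11.3%) and 41 (without control 1) to 1945 (without mutant 3). Smad7 ran from -0.014 (without mutant 3) to 0.16 (without control 3) with 1 array left out; the other members kept their sign under every alternative run. The cause of these shifts was not tested. Same-numbered arrays deviated from their group means together with r of 0.13, 0.08 and 0.32 over probe sets. The last, of control 3 with mutant 3, was the highest of any control with any mutant, while control 1 correlated best with mutant 2 (r = 0.20). The labels name no pairing, and deviations from means of 3 arrays cannot tell whether same-numbered pools share more than a number. The replicate block gave 1084 genes, 4 pathway genes and 0 members.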

Other observations

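Differences between related genes on the same array were compared for 4 pairs, chosen after their values were seen. The log2 intensity of Id3 minus that of Id1 was -1.07, -0.92 and -0.88 in control pools 1 to 3 and -0.43, -0.54 and -0.23 in mutant pools 1 to 3, a shift of 0.56 that was higher in 3 of 3 mutant pools than in any control. Id2 minus Id1 shifted by 0.46, from 0.58, 0.47 and 0.72 to 0.77, 0.92 and 1.47, also without overlap. For Id3 minus Id2 the shift was 0.09, with control values of -1.65, -1.39 and -1.60 and mutant values of -1.19, -1.46 and -1.70 that overlapped. Msx1 minus Msx2 shifted by 0.49, from -0.26, 0.19 and -0.03 to 0.68, 0.39 and 0.29. The exact two-sided permutation test gave p = 0.1 for Id3 minus Id1, Id2 minus Id1 and Msx1 minus Msx2, the smallest possible with 3 against 3, and p = 0.7 for Id3 minus Id2. Adjusted over the 4 pairs these are 0.133 and 0.700. With 3 arrays a group no pair could reach 0.05, so these p-values do not separate the pairs from no difference or show that there is none.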
